A study of Mus musculus with 10 samples.

Results

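The macrophage lineage regulators described here are the receptor gene Csf1r and the transcription factor genes Spi1, Cebpa, Cebpb, Irf8, Irf5, Maf and Runx1. They were picked by symbol from a table of 57010 mouse gene identifiers, and all 8 were among the 12455 genes abundant enough to be tested. The cells were bone marrow-derived macrophages, grown in dishes from precursors flushed out of the femur, and their polyadenylated RNA was sequenced. The study compared cells of wild-type mice (WT) with cells of mice lacking WASp (WKO), the actin regulator encoded by Was, either left unconfined or pressed between surfaces. The 4 groups were WT unconfined (2 libraries), WKO unconfined (2), WT confined (3) and WKO confined (3). Cells of all groups, controls included, had grown for 7 days with 20 ng/mL recombinant M-CSF, the ligand of the Csf1r product, and confined cells had spent 1 h at a height of 3 µm. Libraries are named by their replicate number, and the labels give no mouse strain, age or sex and do not say whether replicates came from separate mice, so the p-values measure the spread between these libraries, which may be technical.

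Csf1r encodes the receptor for M-CSF and IL-34, a tyrosine kinase that macrophages need for survival and proliferation. Spi1 encodes PU.1, the ETS factor that opens myeloid enhancers, and Runx1 encodes a partner that acts with it early in blood development. C/EBPα and C/EBPβ (Cebpa and Cebpb) bind the same DNA motif; the former drives myeloid commitment, and the latter is known as an inducible factor of stimulated macrophages. IRF8 specifies monocytes and cooperates with PU.1, IRF5 acts downstream of Toll-like receptors, and c-Maf (Maf) restrains self-renewal and promotes Il10 and other genes of mature macrophages.

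Of the 8 genes, 5 have promoter windows in the RefSeq table used here (build GRCm38.p6); Csf1r, Spi1 and Maf do not. The 250 bases before the transcription start are shown for both C/EBP genes, since their values parted on confinement, and for Irf8, whose values were lower in confined cells. All 3 lie on the plus strand, at chr7:35119043-35119292 for Cebpa, chr2:167688665-167688914 for Cebpb and chr8:120736108-120736357 for the upstream of the 2 Irf8 windows. Capitals mark the TATA box letters TATAAA in Cebpa and Irf8, and in Cebpb the letters TGACG, the core of a cyclic-AMP response element, or CGTCA where the match is on the minus strand.
Cebpa: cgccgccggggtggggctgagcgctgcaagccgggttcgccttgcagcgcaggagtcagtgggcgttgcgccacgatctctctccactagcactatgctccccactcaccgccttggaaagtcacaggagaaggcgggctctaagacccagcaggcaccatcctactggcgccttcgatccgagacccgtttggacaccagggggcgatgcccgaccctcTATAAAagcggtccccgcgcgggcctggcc
Cebpb: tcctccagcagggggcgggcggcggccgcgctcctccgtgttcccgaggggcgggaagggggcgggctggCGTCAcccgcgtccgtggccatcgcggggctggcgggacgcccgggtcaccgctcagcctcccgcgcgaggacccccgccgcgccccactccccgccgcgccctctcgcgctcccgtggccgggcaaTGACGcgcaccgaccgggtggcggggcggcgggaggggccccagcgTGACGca
Irf8: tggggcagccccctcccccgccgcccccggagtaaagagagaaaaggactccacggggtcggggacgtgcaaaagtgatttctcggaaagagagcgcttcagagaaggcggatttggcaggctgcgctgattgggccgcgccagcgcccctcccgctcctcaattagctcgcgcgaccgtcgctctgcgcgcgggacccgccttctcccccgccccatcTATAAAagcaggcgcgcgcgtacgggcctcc

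TATAAA began 30 bases before the start in Cebpa and 31 before it in Irf8, and 12.4% of the 32851 RefSeq promoter windows hold it in either orientation. The Cebpb window holds TGACG at -180 (minus strand), -53 and -7, a core that was searched for after the sequences had been seen. TGACG occurs in 17.8% of the windows and at least 2 times in 3.9%. The other motifs, searched on both strands in the windows of the 5 genes, were TGACGTCA (the full cyclic-AMP element, in 1.55% of all windows), TGANTCA (AP-1, 6.75%), TTGCNNAA (C/EBP, 9.56%) and GAGGAAGT (PU.1, 2.44%), and no match to them was found. TGACGTCA contains TGACG, and a match is a description of letters, not of a bound site. GC content was 81.6% in the Cebpb window, 66.4% in that of Cebpa and 67.2% in that of Irf8.

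The libraries held between 13295701 and 19329908 reads. Was ranged from 1308 to 1649 normalized read counts in the 5 WT libraries and from 96.9 to 154 in the 5 WKO libraries, in the direction of the labels. All 7 macrophage markers (such as Lyz2, Cd68 and Adgre1) were detected in every library, with summed levels of 157104 to 186980 in WT and 213704 to 276722 in WKO. Lyz2 made up most of these sums, with means of 130482 and 116461 in unconfined and confined WT and 159640 and 179662 in WKO. Adgre1, Cd68, Fcgr1 and Mertk also had higher means in WKO in both conditions. Itgam had lower ones (2644 in WT and 2224 in WKO unconfined, 2809 and 2612 confined). Cd14 was lower in WKO in unconfined cells (4254 in WT and 3037 in WKO) and higher in confined ones (6280 and 9449). The 12 markers of neutrophils and their progenitors summed to between 2588 and 10949 in WT, 25159 and 30347 in WKO unconfined, and 7047 and 28311 in WKO confined libraries. The 13 stromal markers, such as collagens, summed to 10959 in WKO confined replicate 5 and to between 236 and 3622 elsewhere. Of the T and NK cell markers, Ncr1 was at 0 in all 4 groups. WKO confined replicate 5 also held the highest level among the 10 libraries of Csf1r, Irf5, Maf and Runx1, and the lowest of Cebpa. In these bulk samples fewer cells of a type and less RNA per cell cannot be told apart.

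Per kilobase of exon, Csf1r was the most abundant of the 8 genes, with a mean of 4766 normalized read counts per kilobase over the 10 libraries (3689 to 6553). Cebpa (1408), Spi1 (1334) and Irf5 (1075) had ranges over libraries that overlapped, from 962 to 1916 for Cebpa and from 891 to 1359 for Irf5. The place of Cebpb in this order depended on the condition. Unconfined libraries held 367 to 1015 Cebpb counts per kilobase, with group means of 691 in WT and 601 in WKO that were below those of Maf (724 and 795). Confined libraries held 1812 to 2639, second to Csf1r and with no overlap with Cebpa (962 to 1612 in confined cells). Maf had 757 per kilobase over the 10 libraries (556 to 1049), which overlapped with Irf5. Irf8 had 387 per kilobase (302 to 501), below Maf in all libraries but overlapping with Cebpb in unconfined cells, and Runx1 had 109 (88.6 to 160), below all the others. This order depends on the length used, here the union of all annotated exons (8241 bases for Maf). By mean count without length, Maf was at percentile 97.4 of the tested genes, above Cebpa (94.7), Spi1 (94.5) and Irf5 (93.3).

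**Figure D1:**
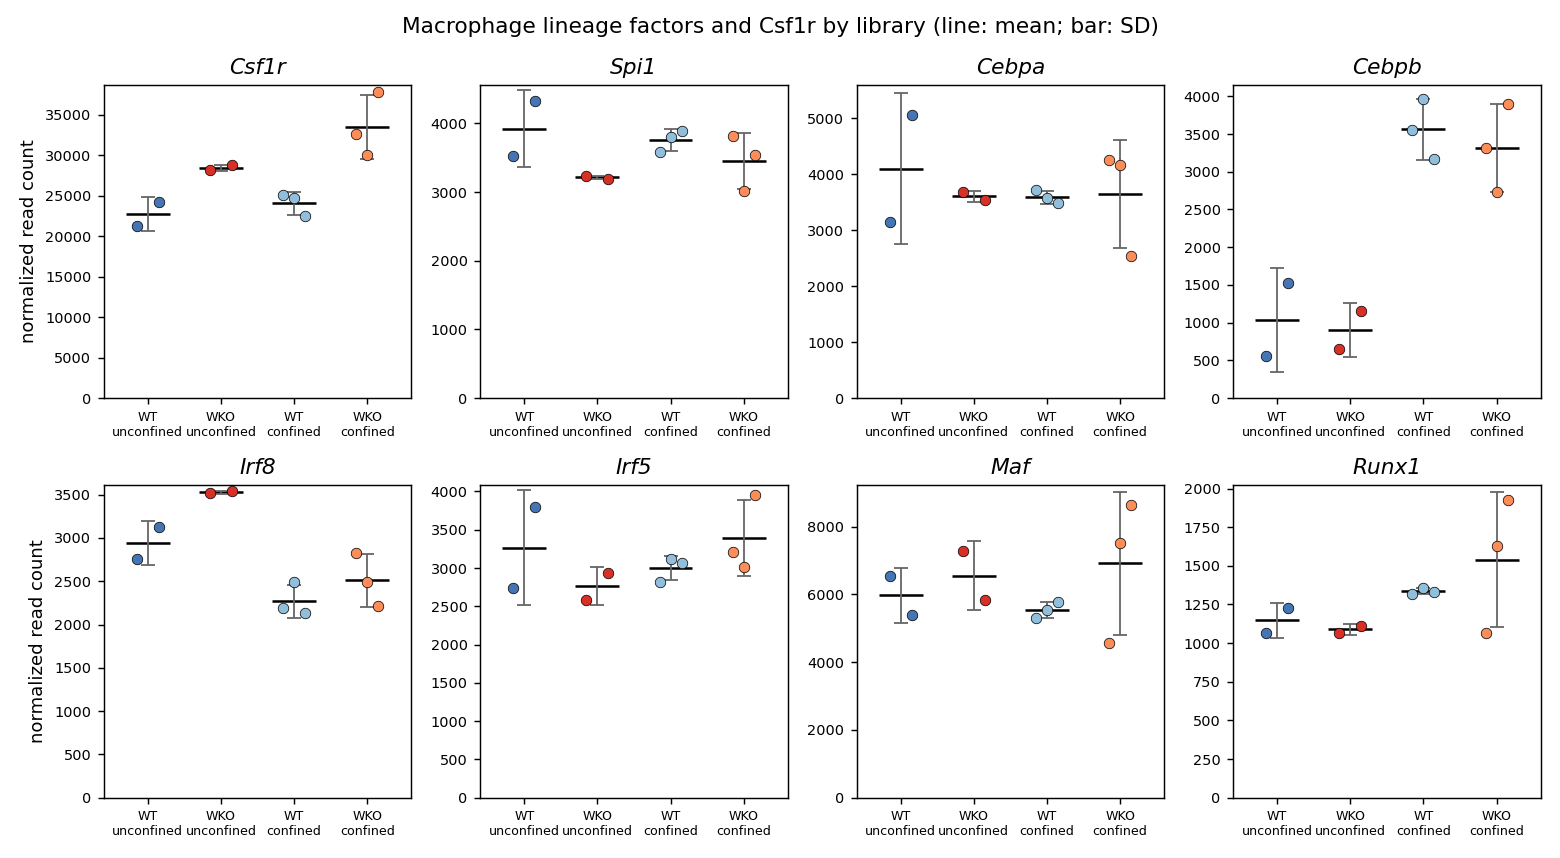
Normalized read count (vertical axis, from 0) of each of the 8 genes in each library (points) of the 4 groups, with the group mean (line) and SD (bar). The 6 confined libraries lie between 2726 and 3970 for Cebpb and the 4 unconfined ones between 552 and 1526, while Csf1r is at least 28190 in WKO and at most 25077 in WT.

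Csf1r, the receptor, was higher in WKO than in WT cells. Its normalized read count was 21303 and 24262 in WT unconfined libraries (replicates 1 and 3) and 28190 and 28745 in WKO unconfined libraries (replicates 1 and 3). In WT confined libraries it was 25077, 24689 and 22457 (replicates 2, 3 and 6), and in WKO confined libraries 32606, 30015 and 37839 (replicates 1, 2 and 5). All 5 WKO libraries lay above all 5 WT libraries, and the groups did not overlap in either condition. Of all genes, 44.9% did not overlap between unconfined genotypes and 21.1% between confined ones. The share of genes that separate all 5 WKO from all 5 WT libraries was not counted. In confined cells Csf1r rose from 24074 ± 1414 in WT to 33487 ± 3986 in WKO (SD, n = 3 each), a log2 fold change of 0.47 (SE 0.11, limma adjusted p 0.0464) or 1.39-fold (95% interval 1.17 to 1.64). In unconfined cells the log2 fold change was 0.32 (SE 0.14, limma adjusted p 0.467), with a fold of 1.25 (95% interval 1.02 to 1.54). The interaction, or the change on confinement in WKO less the same change in WT, was 0.15 on the log2 scale (SE 0.17, limma adjusted p 0.999), so a difference between the conditions was not shown.

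The call for Csf1r in confined cells lies close to the threshold. It passed in 6 of 18 alternative settings, with log2 fold changes of 0.36 to 0.55 and adjusted p of 0.00237 to 0.288, and without WKO confined replicate 5 the value was 0.38 (limma adjusted p 0.0666). It was also lost without any of the WT confined libraries (replicates 2, 3 and 6, limma adjusted p 0.124, 0.129 and 0.172) and without any of the 4 unconfined ones (0.0564 to 0.0912). Neutrophil and progenitor markers were also higher in 4 of the 5 WKO libraries than in any WT library, and their part in the Csf1r result was not tested; the library with the highest Csf1r, WKO confined replicate 5, had a neutrophil marker sum of 7047, inside the WT range. Exons of Csf1r (ENSMUSG00000024621, chromosome 18, 61100598 to 61132149, plus strand, GRCm38) share 873 bases, or 15.1%, with Hmgxb3 on the opposite strand. The use of strand in counting is not given in the sources used here, so reads there cannot be assigned with certainty. Hmgxb3 itself had group means of 394 to 589 against 22782 to 33487 for Csf1r.

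Between confined and unconfined cells, Csf1r had a log2 fold change of 0.08 in WT (SE 0.12, limma adjusted p 0.849) and 0.23 in WKO (SE 0.12, limma adjusted p 0.43). The fold intervals were 0.878 to 1.27 and 0.972 to 1.41. In WKO the 3 confined libraries nevertheless all exceeded both unconfined ones. Among the 10216 other genes with a mean of at least 50, the genes whose values were most like those of Csf1r over the 10 libraries were Adgre4 (Pearson r 0.965), an adhesion receptor of macrophages, and Ctsc (r 0.963), which encodes cathepsin C. The 10 libraries share the 4 groups, so these values describe the set of libraries and carry no p.

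The ligands and signalling partners of the receptor were followed in a list of 18 genes, of which 17 were tested. None of the 17 passed limma's threshold in any of the 4 comparisons or in the interaction. The background share of genes called was 0.145% (WKO against WT, unconfined), 2.59% (WKO against WT, confined), 1.16% (confinement, WT), 1.72% (confinement, WKO) and 0% (interaction). The median log2 fold change of the list under confinement was 0.12 in WT and 0.17 in WKO, against medians of -0.01 in both genotypes over all genes. Without WKO confined replicate 5 the list's WKO median was 0.099, and that of WT was unchanged.

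Csf1, which encodes M-CSF itself, had 362 and 465 normalized read counts in WT unconfined libraries and 348 and 388 in WKO unconfined libraries. Confined libraries held 769, 838 and 1036 in WT (replicates 2, 3 and 6) and 531, 423 and 2171 in WKO (replicates 1, 2 and 5). The WT confined libraries were all above the unconfined ones, whereas in WKO the highest value came from replicate 5, the library with the high stromal sum, whose part was not tested. Without that library Csf1 and Pik3r1 (the regulatory subunit of PI3-kinase) rose and Dok1 (an adaptor that dampens kinase signalling) fell in WT under confinement, and Csf1 fell in WKO against WT in confined cells; these are the 3 calls in the first and the 1 call in the second comparison, where 3.19% and 3.36% of all genes were then called. Il34, the other ligand, had at most 8 reads in a library and was not tested. Csf1 and Il34 were described after their values had been seen.

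Spi1, which encodes PU.1, passed in no comparison. It had 3528 and 4323 normalized read counts in WT unconfined (replicates 1 and 3) and 3234 and 3198 in WKO unconfined libraries (replicates 1 and 3). The values were 3588, 3806 and 3887 in WT confined (replicates 2, 3 and 6) and 3817, 3015 and 3544 in WKO confined libraries (replicates 1, 2 and 5). Both WKO unconfined libraries lay below both WT unconfined ones, and the confined groups overlapped. The log2 fold change of WKO against WT was -0.28 in unconfined cells (SE 0.14, limma adjusted p 0.572, fold 0.823 with a 95% interval of 0.668 to 1.02) and -0.13 in confined cells (SE 0.11, limma adjusted p 0.637, fold interval 0.772 to 1.09). For confinement the fold intervals were 0.795 to 1.16 in WT and 0.884 to 1.3 in WKO. These intervals exclude a 2-fold change of Spi1 in either direction. The genes most like Spi1 over the libraries were Plbd2 (r 0.925) and Efhd2 (r 0.924).

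Cebpb, the inducible C/EBP gene, was the only one of the 8 to pass the threshold on confinement, and it rose in both genotypes. Its normalized read count was 552 and 1526 in WT unconfined (replicates 1 and 3) and 650 and 1158 in WKO unconfined libraries (replicates 1 and 3). After confinement it was 3552, 3970 and 3165 in WT (replicates 2, 3 and 6) and 3318, 2726 and 3901 in WKO (replicates 1, 2 and 5). Every confined library was above every unconfined one, and in both genotypes unconfined replicate 1 was lower than replicate 3. In WT, Cebpb rose from 1039 ± 689 (SD, n = 2) to 3562 ± 402 (SD, n = 3), a log2 fold change of 1.95 (SE 0.35, limma adjusted p 0.0218) or 3.86-fold (95% interval 2.27 to 6.56). In WKO it rose from 904 ± 359 (SD, n = 2) to 3315 ± 588 (SD, n = 3), by 1.92 on the log2 scale (SE 0.35, limma adjusted p 0.0184) or 3.78-fold (95% interval 2.22 to 6.42).

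The increase of Cebpb did not differ detectably between the genotypes, with an interaction of -0.03 (SE 0.5, limma adjusted p 0.999) whose 95% interval in fold runs from 0.462 to 2.07, and so still holds a 2-fold difference either way. WKO against WT gave log2 fold changes of -0.08 in unconfined cells (fold interval 0.529 to 1.69) and -0.11 in confined cells (0.576 to 1.49), and neither passed. The low unconfined replicate 1 bears on the size. Without it the log2 fold change was 1.22 in WT (limma adjusted p 0.161) and 1.5 in WKO (limma adjusted p 0.272), and without unconfined replicate 3 it was 2.68 and 2.33. The WT call was also lost without WT confined replicate 2, 3 or 6 (limma adjusted p 0.089, 0.092 and 0.0618) and with edgeR's quasi-likelihood test (adjusted p 0.0551), while it passed with DESeq2 (adjusted p 0.00481). Without WKO confined replicate 5, the library with the high stromal sum, the value in WKO was 1.79 (limma adjusted p 0.0217).

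Cebpb (ENSMUSG00000056501) has 1 exon, on chromosome 2 at 167688915 to 167690418 (plus strand, GRCm38), and 312 of its 1504 bases, or 20.7%, also belong to Peds1 on the opposite strand. Peds1 (annotated as Tmem189 in GENCODE M21) had group means of 1650 to 2741 and a fold of 1.23 in WT and 1.27 in WKO on confinement, with limma adjusted p of 0.318 and 0.202. The genes most like Cebpb over the 10 libraries were Tent5c (r 0.976), a poly(A) polymerase gene, and Map2k3 (r 0.966), the kinase upstream of p38.

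Cebpa, by contrast with its relative, did not pass in any comparison. It had 3143 and 5052 normalized read counts in WT unconfined (replicates 1 and 3) and 3673 and 3532 in WKO unconfined libraries (replicates 1 and 3). Confined libraries held 3709, 3579 and 3480 in WT (replicates 2, 3 and 6) and 4248, 4155 and 2535 in WKO (replicates 1, 2 and 5). The groups overlapped in all 4 comparisons, with WT unconfined replicate 3 highest and WKO confined replicate 5 lowest. The log2 fold change on confinement was -0.15 in WT (SE 0.22, limma adjusted p 0.843, fold interval 0.642 to 1.26) and -0.02 in WKO (SE 0.22, limma adjusted p 0.983, fold interval 0.702 to 1.38). WKO against WT gave -0.15 in unconfined and -0.02 in confined cells, with fold intervals of 0.624 to 1.31 and 0.731 to 1.34. The most alike genes were Antkmt (r 0.94) and Ncoa5 (r 0.926).

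The balance of the 2 C/EBP transcripts therefore differed between the conditions. Per base of exon, the ratio of Cebpb to Cebpa was 0.308 and 0.529 in WT unconfined libraries and 0.31 and 0.575 in WKO unconfined libraries (replicates 1 and 3 in both). In confined libraries it was 1.68, 1.94 and 1.59 in WT (replicates 2, 3 and 6) and 1.37, 1.15 and 2.7 in WKO (replicates 1, 2 and 5). All 4 unconfined libraries had more Cebpa than Cebpb counts per base, and all 6 confined libraries had more Cebpb. Cebpb shares 20.7% of its exon bases with Peds1 on the opposite strand, which had group means of 505 to 839 per kilobase. The use of strand in counting is not given in the sources used here, and the part of these reads in the ratio was not tested. The means were 1.74 ± 0.18 in WT confined and 1.74 ± 0.84 in WKO confined cells (SD, n = 3 each), against 0.419 ± 0.157 and 0.443 ± 0.187 unconfined (SD, n = 2 each). The promoter windows printed above hold TGACG for Cebpb, a core searched for after the sequences were seen, and TATAAA for Cebpa. Their part in this balance was not tested, and no factor binding was measured.

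**Figure D2:**
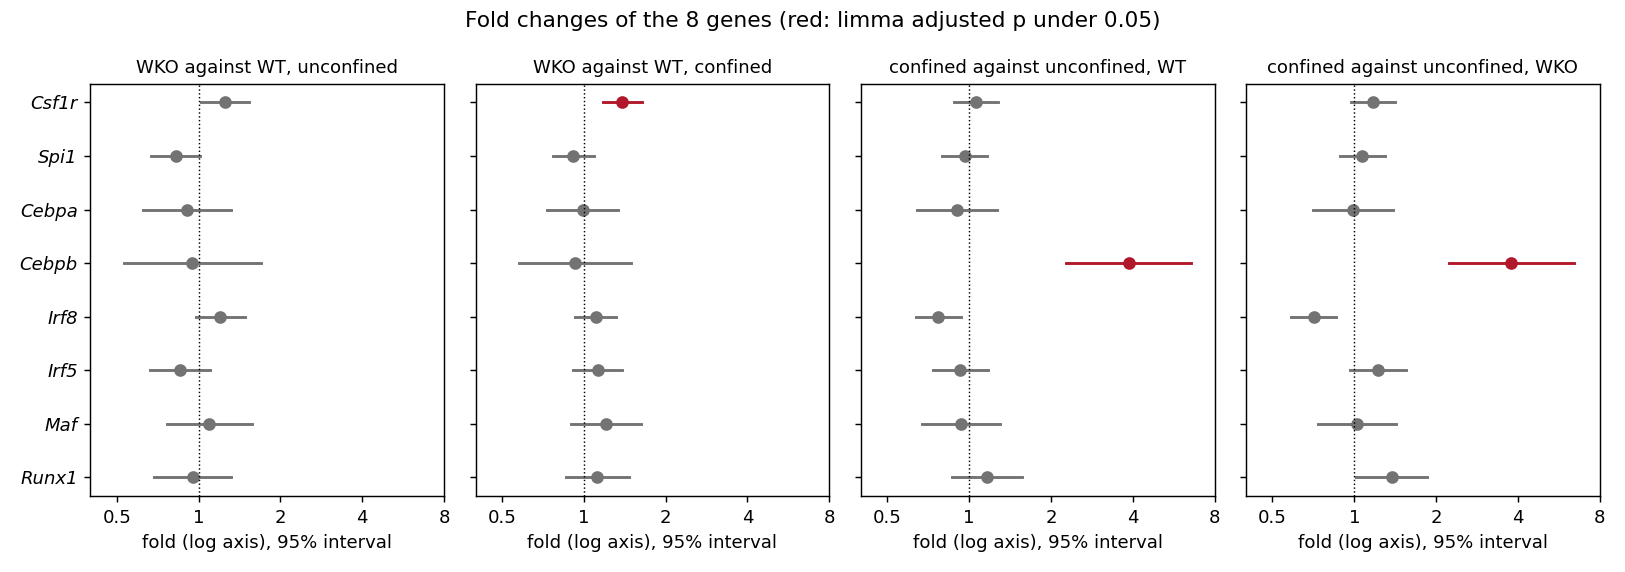
Fold (horizontal log axis) with 95% interval of each gene in the 4 comparisons; red marks limma adjusted p under 0.05 over all tested genes. Cebpb stands at 3.86 and 3.78 on confinement in WT and WKO, Csf1r at 1.39 for WKO against WT in confined cells, and the other points lie between 0.709 and 1.37.

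Irf8 was lower in confined than in unconfined cells of the same genotype, without passing the main threshold. It had 2760 and 3122 normalized read counts in WT unconfined (replicates 1 and 3) and 3515 and 3537 in WKO unconfined libraries (replicates 1 and 3). Confined libraries held 2192, 2486 and 2132 in WT (replicates 2, 3 and 6) and 2828, 2495 and 2215 in WKO (replicates 1, 2 and 5). Within each genotype all confined libraries were below all unconfined ones, and the unconfined WKO libraries were above the unconfined WT ones. In WKO the mean was 3526 ± 15.3 (SD, n = 2) unconfined and 2513 ± 306 (SD, n = 3) confined, a log2 fold change of -0.50 (SE 0.13, limma adjusted p 0.0829, fold 0.709 with a 95% interval of 0.586 to 0.858). In WT it was 2941 ± 256 (SD, n = 2) and 2270 ± 189 (SD, n = 3), a log2 fold change of -0.37 (SE 0.13, limma adjusted p 0.233, fold interval 0.638 to 0.934). The WKO value passed in 2 of 18 alternatives, with DESeq2 (adjusted p 0.0212) and without WKO confined replicate 1 (-0.58, limma adjusted p 0.013); over all 18 it ran from -0.58 to -0.30, with adjusted p up to 0.577. The interaction was -0.12 (SE 0.18, limma adjusted p 0.999).

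Between genotypes, Irf8 had log2 fold changes of 0.26 in unconfined (SE 0.14, limma adjusted p 0.6) and 0.14 in confined cells (SE 0.11, limma adjusted p 0.584). The fold intervals were 0.975 to 1.48 and 0.931 to 1.31. The 7 dendritic cell markers, with Xcr1 at 0 in every group, summed to 63.6 to 72.0, 96.0 to 191, 27.3 to 55.7 and 76.1 to 116 in WT unconfined, WKO unconfined, WT confined and WKO confined libraries. Ly6c2 and Ccr2, which mark monocytes, summed to 300.2 and 522 in WT unconfined libraries (replicates 1 and 3) and to 802 and 454 in WKO unconfined libraries (replicates 1 and 3). In confined libraries this sum was 154, 185 and 190.4 in WT (replicates 2, 3 and 6) and 491, 424 and 590 in WKO (replicates 1, 2 and 5). It was thus lower after confinement in every WT library, like Irf8, while the WKO groups overlapped. The part of these cells in the Irf8 values was not tested. Narf (r 0.99) and Rpain (r 0.973) were the genes most like Irf8, whose 11 exon blocks on chromosome 8 (ENSMUSG00000041515) overlap no other annotated gene.

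Irf5 passed in no comparison. It had 2741 and 3796 normalized read counts in WT unconfined (replicates 1 and 3) and 2588 and 2937 in WKO unconfined libraries (replicates 1 and 3). In confined libraries it had 2816, 3118 and 3069 in WT (replicates 2, 3 and 6) and 3206, 3020 and 3949 in WKO (replicates 1, 2 and 5). The WKO confined libraries were all above the WKO unconfined ones, whereas the WT groups overlapped. The confinement log2 fold change was 0.29 in WKO (SE 0.15, limma adjusted p 0.423, fold interval 0.967 to 1.54) and -0.11 in WT (SE 0.15, limma adjusted p 0.841, fold interval 0.736 to 1.17). The interaction was 0.39 (SE 0.22, limma adjusted p 0.999). Between genotypes the fold intervals were 0.662 to 1.1 unconfined and 0.911 to 1.39 confined. Irf5 shares 411 exon bases (14.1%) with Tnpo3 on the opposite strand, and the most alike genes were Btbd1 (r 0.917) and Tmbim1 (r 0.907).

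Maf was spread most widely in WKO confined cells. Its normalized read count was 6540 and 5399 in WT unconfined (replicates 1 and 3) and 7272 and 5833 in WKO unconfined libraries (replicates 1 and 3). It was 5298, 5539 and 5766 in WT confined (replicates 2, 3 and 6) and 4578, 7529 and 8641 in WKO confined libraries (replicates 1, 2 and 5). WKO confined replicate 1 held the lowest and replicate 5 the highest of the 10 values, so this group spanned all the others. WKO against WT in confined cells gave a log2 fold change of 0.27 (SE 0.20, limma adjusted p 0.539, fold interval 0.899 to 1.62), and without WKO confined replicate 1 it was 0.54 (limma adjusted p 0.0321), while without replicate 5 it was 0.09 (limma adjusted p 0.872). The fold intervals were 0.763 to 1.57 for WKO against WT unconfined, 0.669 to 1.29 for confinement in WT and 0.737 to 1.43 for confinement in WKO, and none of these passed. Cep350 (r 0.955) and Pik3cg (r 0.944) were the most alike.

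Runx1 had the lowest level per kilobase of the 8 genes. Its normalized read count was 1069 and 1229 in WT unconfined (replicates 1 and 3) and 1065 and 1112 in WKO unconfined libraries (replicates 1 and 3). It was 1317, 1355 and 1331 in WT confined (replicates 2, 3 and 6) and 1065, 1627 and 1928 in WKO confined libraries (replicates 1, 2 and 5). The WT confined libraries were all above the WT unconfined ones, while WKO confined replicate 1 lay at the level of the unconfined cells. Confinement gave a log2 fold change of 0.22 in WT (SE 0.20, limma adjusted p 0.711, fold interval 0.863 to 1.57) and 0.46 in WKO (SE 0.20, limma adjusted p 0.325, fold interval 1.02 to 1.85). Without WKO confined replicate 1 the WKO value was 0.70 (limma adjusted p 0.00737), and without replicate 5 it was 0.27 (limma adjusted p 0.605). Between genotypes the fold intervals were 0.685 to 1.32 unconfined and 0.858 to 1.46 confined. Snx10 (r 0.985) and Ptp4a2 (r 0.984) were the most alike.

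Counted together, 0 of the 8 genes were called between genotypes in unconfined cells (limma; 0 with edgeR and 0 with DESeq2) and 1 in confined cells (1 with edgeR and 1 with DESeq2), against backgrounds of 0.0482% of genes higher and 0.0963% lower, and 1.38% higher and 1.2% lower. On confinement 1 was called in WT (0 with edgeR and 1 with DESeq2) and 1 in WKO (1 with edgeR and 2 with DESeq2), where 0.891% of genes were higher and 0.265% lower in WT, and 1.49% higher and 0.233% lower in WKO. The shares given here for both kinds of comparison are limma's. Of all 12455 genes, edgeR called 15 and 319 between unconfined and confined genotypes, and 116 and 186 on confinement in WT and WKO. In the same order DESeq2 called 181, 775, 332 and 484. The interaction called 0 of the 8 (limma; 0 with edgeR and 0 with DESeq2). At an unadjusted p under 0.05 there were 1 and 1 of the 8 between unconfined and confined genotypes, 2 and 3 on confinement in WT and WKO, and 0 for the interaction, against 9.6%, 16.8%, 12.2%, 14.1% and 2.07% of all genes. Groups did not overlap for 3 genes between unconfined genotypes (Csf1r, Spi1 and Irf8) and for 1 between confined genotypes (Csf1r), against 44.9% and 21.1% of all genes. On confinement they did not overlap for 3 in WT (Cebpb, Irf8 and Runx1) and for 4 in WKO (Cebpb, Irf8, Csf1r and Irf5), against 35.9% and 28.3%.

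Relatives of the 7 factors were examined next, in a list of 22 family members of which 20 were tested. On confinement 3 rose in WT and 3 in WKO by limma, against 0.891% and 1.49% of all genes higher. The genes were Irf1, Maff and Mafk in both. Irf1, an interferon and NF-κB target that itself activates transcription, rose from a mean of 519 to 4501 normalized read counts in WT (log2 fold change 3.10, limma adjusted p 0.00173) and from 947 to 5442 in WKO (2.43, limma adjusted p 0.00416). Maff, a small Maf protein gene without a transactivation domain, rose from 67.8 to 609 in WT (3.15, limma adjusted p 0.00277) and from 42.6 to 933 in WKO (4.30, limma adjusted p 0.000333). Mafk rose by 1.58 on the log2 scale in WT and 1.17 in WKO.

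Cebpd, another inducible C/EBP gene, had log2 fold changes of -0.05 in WT and -0.22 in WKO and did not pass. Across the 20 relatives the median log2 fold change on confinement was -0.05 in WT and 0.01 in WKO. Between genotypes 0 of the 20 passed in either condition with limma, against 0.145% of all genes unconfined and 2.59% confined. Without WKO confined replicate 5 Cebpe alone rose in WKO against WT in confined cells, where 3.36% of all genes were then called. The neutrophil and progenitor markers summed to 22052 and 28311 in the remaining WKO confined replicates 1 and 2. In WT confined libraries they summed to at most 8005, and their part in the Cebpe value was not tested.

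**Figure D3:**
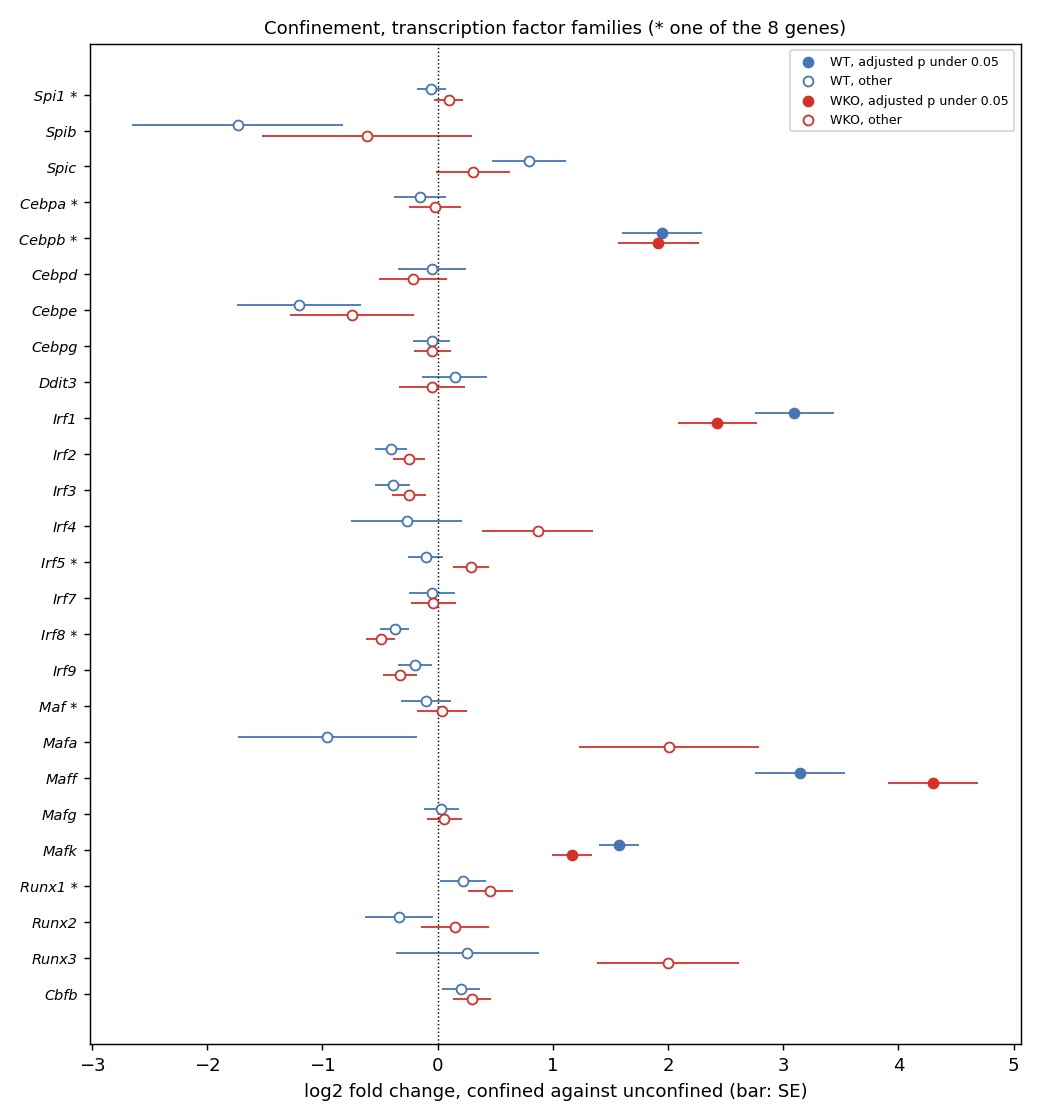
Log2 fold change (horizontal axis, bar: SE) of confined against unconfined cells for the factors (starred) and tested members of their families, in WT (blue) and WKO (red); filled points have a limma adjusted p under 0.05. Cebpb, Irf1, Maff and Mafk carry filled points in both genotypes, and the other genes carry open points.

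Among 29 tested transcription factors of myeloid cells outside these families, 5 rose in WT and 7 in WKO on confinement, and 0 fell, by limma. Of all genes, 0.891% were higher and 0.265% lower in WT, and 1.49% higher and 0.233% lower in WKO. Klf4, a factor of monocyte differentiation, rose from 94.97 to 930 normalized read counts in WT (log2 fold change 3.26, limma adjusted p 0.000125) and from 122 to 1948 in WKO (4.03). Egr1, an immediate early gene, rose by 3.33 and 4.00 on the log2 scale, Bhlhe40 by 1.18 and 1.66, Ets2 by 1.03 and 1.76, and Id2 by 1.19 and 1.75 in WT and WKO. Nfil3 and Bhlhe41 were called in WKO (1.66 and 0.75) and had values of 1.21 and 0.43 in WT; the interaction did not pass for either. The list's median was 0.15 in WT and 0.43 in WKO. Without WKO confined replicate 5 the WKO median was 0.12, and that of WT was unchanged. Between confined genotypes Klf4 rose by 1.08 and Tal1, a factor of erythroid and stem cell programmes, fell by 0.81 in WKO. Of all genes, 1.38% were higher and 1.2% lower there. Without WKO confined replicate 5, 2 genes of the list rose (Klf4 and Myb) and 2 fell (Tal1 and Rbpj), where 3.36% of all genes were called. The remaining WKO confined libraries had higher neutrophil and progenitor sums than any WT confined one, and their part in these calls was not tested.

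The 30 macrophage identity genes were compared between genotypes beside Csf1r. In confined cells 5 of 30 rose in WKO by limma and 0 fell, against 1.38% of all genes higher and 1.2% lower. Mertk, a receptor for apoptotic cells, rose from 1693 to 3556 normalized read counts (log2 fold change 1.08, limma adjusted p 0.00175), and C1qa, C1qb and C1qc, the chains of complement C1q, rose by 1.26, 0.57 and 0.64. Lyz2, lysozyme, rose by 0.63 (limma adjusted p 0.0263). The neutrophil and progenitor sums given above were higher in 2 of the 3 WKO confined libraries than in any WT confined one, with replicate 5 inside the WT range, and their part in these values was not tested. In unconfined cells Mertk was called (1.01, limma adjusted p 0.0336), where 0.145% of all genes were called. The list's median there was 0.07, against 0.20 in confined cells and 0.00 over all genes in both. Without WKO confined replicate 5 the same 5 genes passed in confined cells, and in unconfined cells Mertk and C1qa rose and Itgax fell; the share of all genes called was then 3.36% and 1.13%.

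On confinement 0 of the 30 identity genes passed in WT and 1 in WKO, where 1.16% and 1.72% of all genes were called. The gene in WKO was Cd14, the lipopolysaccharide co-receptor, which rose from 3037 to 9449 normalized read counts (log2 fold change 1.51, limma adjusted p 0.0324). In WT, Cd14 had a value of 0.57 (limma adjusted p 0.506), and its interaction of 0.94 did not pass. The medians of the list on confinement were -0.05 in WT and 0.05 in WKO. Cd68, a lysosomal protein of macrophages, had log2 fold changes of 0.06 and 0.15 on confinement, and Itgam 0.09 and 0.23, and none passed.

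**Figure D4:**
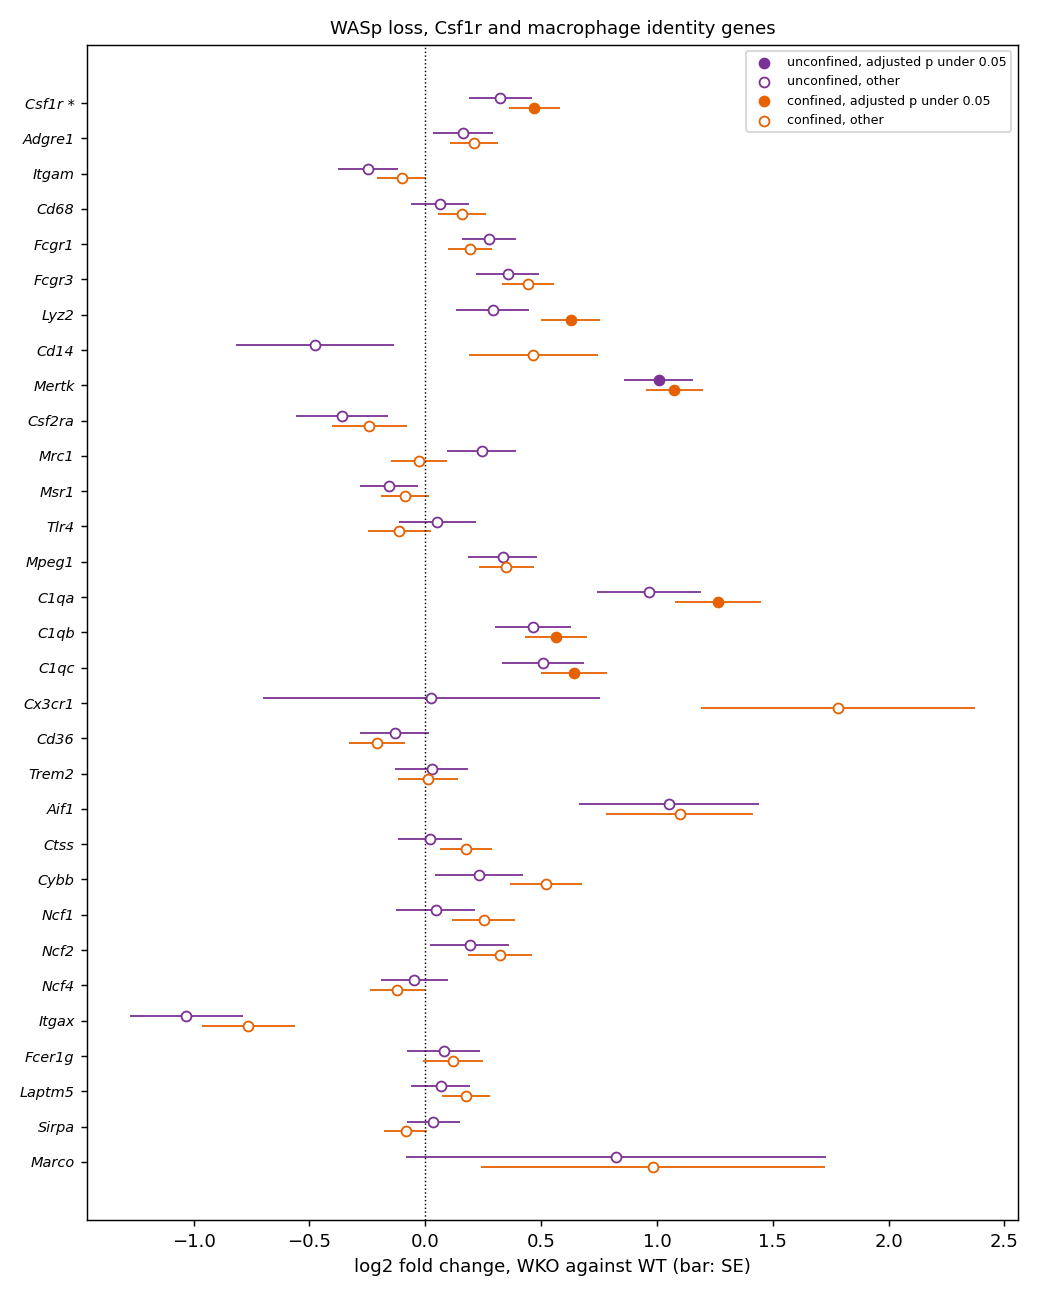
Log2 fold change (horizontal axis, bar: SE) of WKO against WT for Csf1r (starred) and 30 macrophage identity genes, in unconfined (purple) and confined cells (orange); filled points have a limma adjusted p under 0.05. Csf1r at 0.47 in confined cells sits with C1qb (0.57) and Lyz2 (0.63) among the filled points, and Mertk is filled in both conditions.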

How the data were processed

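RNA sequencing libraries from 10 samples of mouse macrophages were grouped by the genotype and treatment in their titles. The authors deposited 1 table whose unit is a signal, the normalized read count. Per the submitters' processing notes, FastQC, Trim Galore and STAR and the build GRCm38 (mm10) were used; the counting tool, annotation and use of strand are not given in the sources used here. In each library 100% of values were whole multiples of 1 read (tolerance 0.01), so reads were recovered by division. Scaling by 1 factor per library leaves differences in composition.

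Genes with a mean of at least 10 were tested as log2(value + 1), a scale that understates changes of low genes, with limma 3.58.1 in R 4.3.3 (1 mean per group, all 10 libraries, 6 residual degrees of freedom, mean-variance trend). P-values were adjusted by Benjamini-Hochberg over all tested genes (threshold 0.05); intervals are unadjusted. Fits with edgeR 4.0.16 and DESeq2 1.42.0 on recovered reads, other scalings, filters and pseudocounts, the replicate number as a block, and leaving out each library were the alternatives.

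Gene coordinates, exon lengths and overlaps come from GENCODE M21. Detection means at least 3 reads, a floor that covers counting error only. Replicate pairs differed beyond sampling noise (chi-square per degree of freedom 7.56 to 78.3). Genes named beside the 8 were the 2 most correlated with each (log2 scale). Up to 4 of each list per comparison, with the smallest p among those passing, were also named. Others were chosen after their values were seen: Cebpd, Ly6c2, Ccr2, Cd68, Itgam, Fcgr1, Cd14 between genotypes, Id2, Nfil3, Bhlhe41, C1qb, Peds1, Hmgxb3 and those named without a library. Of these, Id2, Nfil3, Bhlhe41 and C1qb passed in a comparison but ranked below its 4 smallest p. The 8 genes and all lists were chosen with earlier results of these data known. Results for some genes are not reported here.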

Additional observations from a re-analysis of the deposited data

How the results depend on the processing

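The rise of Cebpb on confinement kept its direction in all 18 alternatives in each genotype, and so did Csf1r in WKO against WT and the lower Irf8 in confined cells. Counts of all genes called moved more. Without a filter on low values they were 10 (unconfined genotypes) and 186 (confined genotypes). With DESeq2 they were 181, 775, 332 and 484 for unconfined genotypes, confined genotypes, confinement in WT and confinement in WKO. With only the libraries compared they were 189, 90, 455 and 33 in that order. Leaving out each replicate in turn gave 4 to 141, 58 to 701, 22 to 397 and 43 to 1043. Of the 8 genes, the count called between confined genotypes was 0 without the filter, with TMM scaling and with only the libraries compared, and 0 to 2 when leaving out each replicate. It was 0 with edgeR for confinement in WT (0 to 1 leaving out each replicate), and 2 with DESeq2 for confinement in WKO (0 to 3). The causes of these moves were not tested.

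Whether the replicate numbers pair the libraries was not settled. The correlations of 7 same-numbered pairs ran from -0.11 to 0.08. In a group of 2 libraries the deviations mirror each other, so these pairs are not independent, and differently numbered pairs were not compared. With the replicate number as a block, 245 genes were called between unconfined genotypes and 0 of the 8 genes between confined genotypes. Replicate 5 occurs only in WKO confined and replicate 6 only in WT confined, so the block gives each its own term. Those libraries then add nothing to the group differences, and how far this moved the values was not tested. With the block Irf8 was -0.30 on confinement in WKO. The block also turned the sign of Cebpa (0.32) and Cebpb (0.13) between confined genotypes, Spi1 on confinement in WT (0.011), Cebpa (0.28) and Maf (-0.33) on confinement in WKO, and the interactions of Cebpb (0.21) and Maf (-0.057).

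Values near 0 changed sign elsewhere too. Cebpa was 0.013 with edgeR and 0.026 with DESeq2 between confined genotypes, and 0.010 and 0.017 on confinement in WKO; the Cebpb interaction was 0.085 and 0.098. Leaving out each replicate, the log2 fold changes between unconfined genotypes ran from -0.49 to 0.20 (Cebpa), -0.81 to 0.65 (Cebpb), -0.46 to 0.0085 (Irf5), -0.027 to 0.29 (Maf) and -0.18 to 0.026 (Runx1). Between confined genotypes they ran from -0.14 to 0.23 (Cebpa), -0.24 to 0.020 (Cebpb) and -0.019 to 0.41 (Runx1). On confinement in WT they ran from -0.013 to 0.17 (Csf1r), -0.20 to 0.091 (Spi1), -0.49 to 0.19 (Cebpa), -0.34 to 0.13 (Irf5) and -0.24 to 0.035 (Maf), and in WKO from -0.15 to 0.22 (Cebpa) and -0.15 to 0.31 (Maf). The interactions ran from -0.21 to 0.47 (Cebpa), -0.77 to 0.70 (Cebpb) and -0.046 to 0.41 (Maf). Where an arm kept 1 library, that library was assumed to vary like the other groups. At this depth each of the 8 genes had at least 581 reads in every library, so the spread between libraries, not counting error, limits these values. The gene list counts without WKO confined replicate 5 were added after its values had been seen.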
